A study of Mus musculus with 6 samples.

Results

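The suprachiasmatic GABAergic neurons of these data were the nuclei with at least 1000 unique molecular identifiers (UMIs) that held at least 1 UMI of *Lhx1*, at least 1 of *Gad1* and *Gad2* together, 0 of *Slc17a6*, and at least 2 UMIs in sum of *Syt10*, *Vipr2*, *Six6*, *Nms*, *Vip* and *Prok2*. The rule found 301 of the 39665 nuclei, which are called members here. *Lhx1* encodes a LIM homeodomain factor of the adult suprachiasmatic nucleus, *Gad1* and *Gad2* make GABA, and *Slc17a6* loads glutamate into vesicles. Members were thus selected on the measured UMIs of these 10 genes, whose values are given as a description, with no test. They were fitted with all other genes and are left out of every count of genes tested or called. The rest of the transcriptome did not enter it.

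The suprachiasmatic nucleus lies above the optic chiasm and keeps the daily time of the body. Nearly all of its neurons release GABA. Its ventral core is known for the peptides Vip and Grp and receives input from the retina, and its dorsal shell is known for Avp, while Prok2 and Nms are secreted signals of the nucleus and *Vipr2* encodes the receptor through which Vip keeps its cells in step. In each cell Clock and Arntl bind E-boxes and drive the *Per*, *Cry*, *Nr1d1* and *Dbp* genes, Per and Cry proteins oppose them, and Rev-Erb (*Nr1d1*, *Nr1d2*) and Ror proteins compete at a common element of *Arntl*.

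Nuclei came from hypothalami of male wild-type C57Bl/6 mice aged 6 to 8 weeks, of which 12 were fed chow ad libitum and 6 were fasted for 16 h overnight. Frozen hypothalami were combined by 6 into 2 fed pools, made on separate days, and 1 fasted pool. Nuclei were sorted as single events by the DNA dye DRAQ5, and each pool was split into 2 tubes that each gave 1 droplet library of 3′ ends. Depth was 39556605, 31757655, 59083864 and 59940795 UMIs in total for fed libraries 1, 2, 3 and 4, and 36177621 and 35567902 UMIs for the fasted pair. Which fed libraries share a pool, the light cycle and the hour of collection are not given in the sources used here, so no level of a clock gene can be tied to a time of day. The p-values rest on the spread between pools, which for fasting is that between the 2 fed pools. Where libraries are named as the samples, part of the spread is technical because tubes share a pool.

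Members numbered 26, 30, 100 and 76 in fed libraries 1 to 4 and 35 and 34 in the fasted libraries, and the median member had 3761, 4488, 7986 and 7481.5 UMIs in the fed and 4936 and 6047 in the fasted libraries. Fed libraries 3 and 4 stood apart from the other 4 libraries. Their nuclei were deeper, their members drew a larger share of UMIs from ribosomal protein genes (2.02 and 1.90% against 0.243 to 0.404%), and they gave 176 of the 301 members. Each library shared 44 to 65 of its barcodes with the other 5 libraries together. The doublet mark, set on the 5% of nuclei with the highest score in each library, fell on 13 members (4.32%). The share over all nuclei was thus fixed in advance, so the mark does not measure how many members are doublets.

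The label was checked against genes that the rule did not use. *Rgs16* (chromosome 1, 153740349 to 153745468, plus strand, GRCm38, GENCODE M21), which encodes a regulator of G protein signalling that marks the suprachiasmatic nucleus, was at 250.03, 154, 38.6 and 68.1 counts per 1000000 UMIs of the set (CPM) in members of the fed and 125 and 139 CPM in those of the fasted libraries. In other GABAergic neurons, the 7914 nuclei with *Gad1* or *Gad2* and with no UMI of *Slc17a6*, *Lhx1* or the 6 summed genes, it was at 2.29 to 6.38 CPM, so the sets did not overlap. An *Rgs16* UMI was present in 81 of 301 members (26.9%), in 2.58% of other GABAergic neurons and in 0.717% of 1395 oligodendrocyte-like nuclei, which show the level of free RNA. Of these 1395 nuclei, 1048 came from the fasted libraries. With nuclei thinned to 2000 UMIs, and shallower ones left out, the shares were 15.3%, 0.717% and 0.398%. The median depths before thinning were 3761 to 7986 UMIs over libraries in members and 1748 to 6304 in oligodendrocyte-like nuclei. In fed libraries 1 and 2 the median oligodendrocyte-like nucleus (1797 and 1748 UMIs) lay below the thinning depth. *Rgs16* thus went with the label in the members as a whole.

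*Rgs16* and *Rorb* went against the label for the members that met the rule through *Six6* alone, while other markers were mixed. These were 61 nuclei (20.3% of members), 56 of them from fed libraries 3 and 4, with no UMI of *Syt10*, *Vipr2*, *Nms*, *Vip* or *Prok2*. Within fed libraries 3 and 4 their pooled *Rgs16* level was 7.92 CPM, against 85.5 CPM in the 93 members with 2 or more UMIs of those 5 genes and 6.09 CPM in *Lhx1*-positive GABAergic nuclei with none of the 6. Their *Rorb* level was 115 CPM against 444 CPM, and *Hlf* (21.8 against 52.7 CPM) and *Nr1d1* (9.90 against 25.8 CPM) were also low. *Six3*, *Zfhx3*, *Nnat* and *Cdc14a* lay in between, at 99.0, 558, 604 and 23.8 CPM. Members with 2 or more had 159, 835, 1444 and 39.8 CPM, and nuclei with none had 65.2, 446, 339 and 6.09 CPM. By library, *Rgs16* in the members through *Six6* alone was at 0 CPM in fed library 3 and 19.3 CPM in fed library 4. These levels rested on 0 and 4 UMIs. The 33 members with a single UMI of those 5 genes, beside *Six6*, also fell short for *Rgs16*, *Rorb* and *Zfhx3*. In fed libraries 3 and 4, which gave 27 of them, *Rgs16* was at 17.9, *Rorb* at 201 and *Zfhx3* at 425 CPM, against 835 CPM of *Zfhx3* in members with 2 or more. *Cdc14a*, *Hlf* and *Nr1d1* were also below those members, at 13.4, 8.94 and 8.94 CPM. In the 27 nuclei these 3 levels rested on 3, 2 and 2 UMIs and that of *Rgs16* on 4, so they are near the floor. *Six3* (139 against 159 CPM) and *Nnat* (1095 against 1444 CPM) lay nearer to those members than to nuclei with none (65.2 and 339 CPM). *Six6*, a factor of the eye and the ventral hypothalamus, thus brought in nuclei that lacked *Rgs16* and *Rorb* at the level of the rest, and the main counts of genes are given below with and without them and the 33. At the edge of the rule, the 114 members with exactly 2 UMIs of the 6 genes had 23.4 CPM of *Rgs16* and the 241 nuclei with 1 UMI, just outside it, had 12.4 CPM, while members with 3 or more had 122 CPM. In fed library 2 the order across the edge was the reverse, with 26.9 CPM just inside and 122 CPM just outside, from 2 and 10 UMIs. In fed libraries 3 and 4, which gave 63 of the 114, the markers were mixed across the edge. There the level just inside was no higher than just outside for *Rorb* (149 against 167 CPM), *Zfhx3* (432 against 472 CPM) or *Hlf* (20.1 against 21.4 CPM). It was higher just inside for *Rgs16* (11.7 against 5.89 CPM), *Six3* (112 against 94.98 CPM) and *Nnat* (620 against 453 CPM). *Cdc14a* (13.4 against 12.5 CPM) and *Nr1d1* (13.4 against 8.84 CPM) were also higher, by little for *Cdc14a*. Just inside, *Rgs16*, *Cdc14a* and *Nr1d1* rested on 7, 8 and 8 UMIs. In the other 4 libraries together, *Rorb* (962 against 435 CPM) and *Zfhx3* (1308 against 852 CPM) were higher just inside.

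Among the 6 summed genes, *Syt10* (chromosome 15, 89782393 to 89841860, minus strand), a synaptotagmin of the suprachiasmatic nucleus, was the most frequent over all members, with a UMI in 84.6, 80, 61 and 61.8% of members in the fed and 77.1 and 82.4% in the fasted libraries. *Six6* was found in 15.4, 13.3, 72 and 80.3% in the fed and 25.7 and 35.3% in the fasted libraries, so it was the most frequent of the 6 in fed libraries 3 and 4 and was below *Syt10* in the other 4 libraries. *Vipr2* was present in 34.6, 30, 13 and 10.5% of members in the fed and 48.6 and 29.4% in the fasted libraries. *Prok2* was present in 30.8, 20, 4 and 6.58% and in 14.3 and 26.5%, respectively. Both were rarest in fed libraries 3 and 4. *Vip* was seen in 30.8, 40, 13 and 13.2% in the fed and 11.4 and 17.6% in the fasted libraries. *Nms* was the scarcest of the 6 over all members, at 7.69, 13.3, 5 and 7.89% and at 2.86 and 17.6%. In oligodendrocyte-like nuclei no gene of the 6 exceeded 7.69% in any library. By combination, 61 members had *Six6* only, 54 had *Syt10* with *Six6*, 53 had *Syt10* only and 18 had *Syt10* with *Vipr2*.

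**Figure D1:**
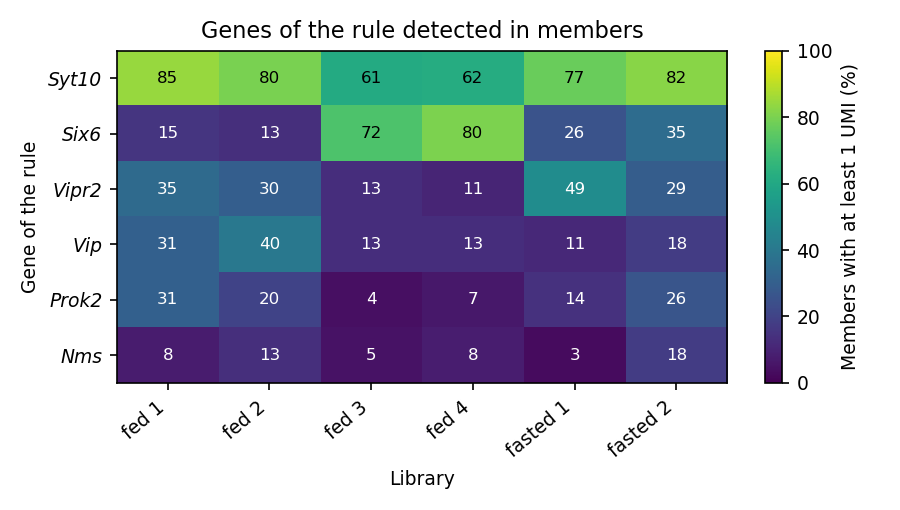
Percentage of members with at least 1 UMI of each of the 6 summed genes of the rule (rows) in each library (columns, fed 1 to 4 and fasted 1 and 2), with the rounded percentage in each cell. Six6 stands at 72 and 80.3% in fed libraries 3 and 4 and lies between 13.3 and 35.3% in the other 4.

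Members differed in their peptides, which is described here with no test because the groupings were set after the values were seen and *Vip*, *Prok2* and *Nms* were part of the rule. The 29 members with 3 or more *Vip* UMIs came from all 6 libraries (4, 7, 6, 8, 1 and 3 in fed 1 to 4 and fasted 1 and 2) and had a median of 6071 UMIs, against 6825 in the remaining members. *Grp*, the other peptide of the core, had a UMI in 8 of 29 (27.6%) against 11 of 272 (4.04%) of the remaining members. *Hbegf*, which encodes an EGF receptor ligand, was found in 9 of 29 (31.0%) against 20 of 272 (7.35%). *Synpr*, a synaptic vesicle gene, was found in 22 of 29 (75.9%) against 83 of 272 (30.5%). *Grp*, *Hbegf* and *Synpr* were thus seen more often beside *Vip*, in nuclei that were not deeper than the rest. Of the 19 members with *Grp*, 11 also had a *Vip* UMI, 15 an *Avp* UMI, 13 a *Six6* UMI and 18 a *Syt10* UMI. Fed library 3 gave 11 of the 19 and fed library 4 gave 7.

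The 17 members with 2 or more *Prok2* UMIs (2, 4, 2, 3, 3 and 3 by library) had a median of 5031 UMIs, against 6827.5 in the other members, and a smaller part of them came from fed libraries 3 and 4. *Rgs16* was found in 16 of 17 (94.1%) against 65 of 284 (22.9%) of the other members. *Rasl11b*, a small GTPase of the Ras family, stood at 14 of 17 (82.4%) against 43 of 284 (15.1%), and *Creb3l1*, a transcription factor of the secretory pathway, at 10 of 17 (58.8%) against 21 of 284 (7.39%). *C1ql3*, a secreted synaptic protein, was seen in 13 of 17 (76.5%) against 61 of 284 (21.5%). Both *Rgs16* and *C1ql3* were also more frequent in the *Vip* nuclei, at 16 of 29 (55.2%) against 23.9% and at 13 of 29 (44.8%) against 22.4%. *Rasl11b* was at 12 of 29 (41.4%) there, against 16.5%. Every one of the 17 *Prok2* nuclei had *Nnat*, the imprinted gene neuronatin, at a pooled 12929.5 CPM against 1589 CPM in the other members. *Nr4a3*, an orphan nuclear receptor induced by activity, was present in 6 of 17 (35.3%) against 9 of 284 (3.17%), and the non-coding RNA *1700016P03Rik* in 11 of 17 (64.7%) against 51 of 284 (17.96%). *Rgs16*, *Rasl11b*, *Creb3l1*, *C1ql3*, *Nnat*, *Nr4a3* and *1700016P03Rik* were thus seen more often in the *Prok2* nuclei, although libraries and *Prok2* moved together. Members with 5 or more *Avp* UMIs (15 nuclei, 1, 2, 6, 5, 0 and 1 by library, median 7631 UMIs against 6682) had *Nms* in 6 of 15 (40%) against 18 of 286 (6.29%), the semaphorin gene *Sema3e* in 5 of 15 (33.3%) against 13 of 286 (4.55%), *Cry1* in 6 of 15 (40%) against 31 of 286 (10.8%) and *Rasd1*, a Ras-like gene, in 4 of 15 (26.7%) against 11 of 286 (3.85%). In these nuclei *Rgs16* stood at 11 of 15 (73.3%) against 24.5% and *C1ql3* at 8 of 15 (53.3%) against 23.1%. *Nms*, a gene of the rule, stood at 6 of 29 (20.7%) against 6.62% in the *Vip* nuclei and at 6 of 17 (35.3%) against 6.34% in the *Prok2* nuclei. The remaining members of each grouping included the 61 members through *Six6* alone, which have no *Nms* by the rule and little *Rgs16*. With these left out the shares among the remaining members were 8.53, 8.07 and 7.96% for *Nms* 29.4, 27.8 and 29.6% for *Rgs16* and 26.1, 24.7 and 26.5% for *C1ql3*, beside the *Vip*, *Prok2* and *Avp* nuclei. Whether the groupings differ was not tested. *Nnat*, *Hbegf*, *Synpr*, *Sema3e* and *Nr4a3* were named after their values were seen.

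Members were compared with other GABAergic neurons of the same suspensions by edgeR's quasi-likelihood test on summed UMIs, with the pool as block. This asks what else sets these neurons apart. Of 18522 genes outside the rule, 254 (1.37%) were higher and 352 (1.9%) lower in members at an adjusted p of 0.05. Which direction held more genes depended on the fit, with 143 higher and 85 lower by DESeq2, 810 and 594 with fed libraries 1 and 3 as a pool, and 877 and 705 with 1 and 4, but 302 and 700 with libraries as samples and 43 and 198 in thinned nuclei. Of the 20 suprachiasmatic markers outside the rule, 12 were higher and 0 lower, with a median log2FC of 1.24, against -0.04 over all genes tested. Without fed libraries 3 and 4, 706 genes passed (libraries as samples), 444 of them among the 606. Without the members through *Six6* alone, 671 passed, 541 of them shared, and 13 of the 20 suprachiasmatic markers and 11 of the clock genes were higher. With the 207 members that had 2 or more UMIs of the 5 genes other than *Six6*, 722 passed, 518 of them shared, and 13 markers and 11 clock genes were again higher. The count of 12 markers was 8 with DESeq2, 10 without fed libraries 3 and 4, 9 of 18 against *Lhx1*-positive nuclei outside the rule and 7 of 17 in thinned nuclei. Against a nearer set, the 1059 *Lhx1*-positive GABAergic nuclei outside the rule, 134 of 12752 genes were higher (1.05%) and 82 lower (0.643%).

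*Rgs16*, whose levels are given above, had the largest difference of all genes higher in 6 of 6 libraries (log2FC = 4.79, standard error 0.25, adjusted p = 2.48e-78), and it stood without the members through *Six6* alone (log2FC = 5.01, adjusted p = 2.09e-85). Among transcription factor genes of the nucleus, *Zfhx3*, a large zinc finger and homeobox gene that sets the pace of the clock, reached 1982, 1533, 749 and 608 CPM in the fed and 1699 and 1409 CPM in the fasted libraries, and 455 to 642 CPM in other GABAergic neurons (log2FC = 1.15, standard error 0.12, adjusted p = 9.14e-19). *Six3* reached 139, 103, 140.0 and 133 CPM in the fed and 159 and 189 CPM in the fasted libraries, against 31.0 to 58.8 CPM (log2FC = 1.78, standard error 0.14, adjusted p = 3.82e-35). For all 3 genes every member value lay above the other GABAergic value of its library. *Zic1*, a zinc finger factor, was higher in 5 of 6 libraries (log2FC = 1.61, standard error 0.30, adjusted p = 6.04e-06), with fed library 3 the exception. *C1ql3* stood at 204, 135, 75.0 and 159.8 CPM in the fed and 125 and 92.5 CPM in the fasted libraries (log2FC = 1.89, standard error 0.15, adjusted p = 5.78e-32). *Prokr2*, the receptor for Prok2, passed on 15 UMIs in all, higher in 4 of 6 libraries, but not with DESeq2 (adjusted p = 0.0791, edgeR log2FC = 2.21, standard error 0.61, adjusted p = 0.0109). *Gpr176*, an orphan receptor of the clock, did not pass, at 111, 70.6, 50.7 and 62.2 CPM in the fed and 119.6 and 96.8 CPM in the fasted libraries in members and 47.3 to 94.3 CPM in other GABAergic neurons (adjusted p = 1, edgeR).

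**Figure D2:**
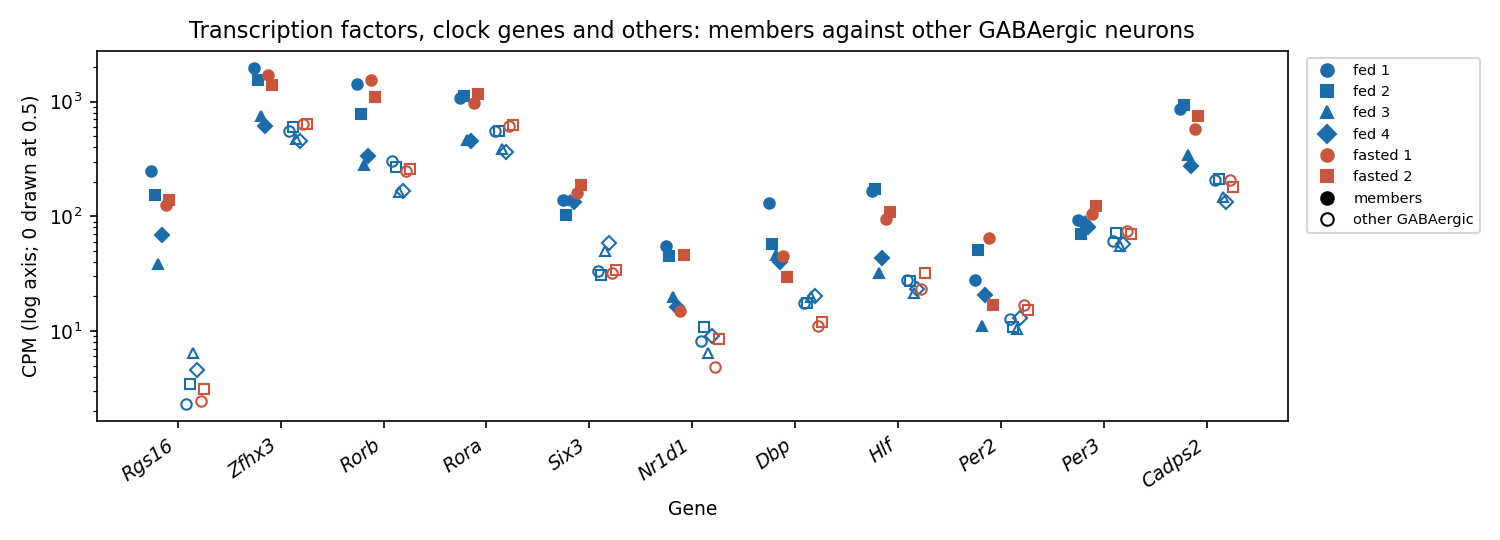
Level of 11 genes in CPM (log axis) in members (filled) and other GABAergic neurons (open), 1 point per library, fed in blue and fasted in red. Rgs16 lies at 38.6 to 250.03 CPM in members and 2.29 to 6.38 CPM in the other neurons, and members of fed libraries 3 and 4 (triangle and diamond) are the lowest members for Rgs16, Zfhx3, Rorb, Rora, Hlf and Cadps2.

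Of the 26 clock genes, 9 were higher (against 1.37% of all genes) and 0 lower (against 1.9%) in members than in other GABAergic neurons, and their median log2FC was 0.52, against -0.04 over all genes. The count of 9 was 5 with DESeq2, 5 of 24 against *Lhx1*-positive nuclei outside the rule, 6 without fed library 2 and 2 of 25 in thinned nuclei. *Rora* and *Rorb* are also counted among the 12 suprachiasmatic markers. The D-box factor gene *Hlf* was at 167, 173, 32.0 and 42.9 CPM in the fed and 94.7 and 109 CPM in the fasted libraries and at 21.3 to 31.9 CPM in other GABAergic neurons (log2FC = 1.46, standard error 0.17, adjusted p = 4.22e-16). *Dbp*, which encodes a related factor, was at 129.6, 57.7, 46.3 and 40.0 CPM in the fed and 44.9 and 29.4 CPM in the fasted libraries, against 11.1 to 20.3 CPM (log2FC = 1.56, standard error 0.22, adjusted p = 4.59e-10). *Nr1d1*, which encodes the repressor Rev-Erb alpha, was at 55.6, 44.9, 19.8 and 16.3 CPM in the fed and 15.0 and 46.3 CPM in the fasted libraries, against 4.88 to 10.9 CPM (log2FC = 1.86, standard error 0.33, adjusted p = 1.6e-06). All 3 were higher in members in 6 of 6 libraries, and the ranges of the sets did not overlap, although fed libraries 3 and 4 came close for *Hlf*. *Rorb* had the largest difference of the activators that oppose Rev-Erb, at 1417, 783, 282 and 335 CPM in the fed and 1545 and 1102 CPM in the fasted libraries (log2FC = 1.72, standard error 0.12, adjusted p = 3.94e-43). With DESeq2 the adjusted p of *Rorb* was 0.0536. *Rora* followed (log2FC = 0.54, standard error 0.10, adjusted p = 5.23e-06).

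Within the negative limb, *Per2* was at 27.8, 51.3, 11.03 and 20.7 CPM in the fed and 64.8 and 16.8 CPM in the fasted libraries (log2FC = 1.02, standard error 0.29, adjusted p = 0.0176) and *Per3* at 92.6, 70.6, 91.5 and 81.4 CPM in the fed and 105 and 122 CPM in the fasted libraries (log2FC = 0.59, standard error 0.14, adjusted p = 0.00221). *Per1* (log2FC = 0.80, standard error 0.26, adjusted p = 0.0629) and *Cry1* (log2FC = 0.79, standard error 0.31, adjusted p = 0.204) did not pass. *Per2*, *Per3* and *Fbxl21* did not pass with DESeq2, whose adjusted p was 0.206, 0.149 and 0.0979. *Ciart*, a repressor of Clock and Arntl, and *Fbxl21*, a ligase subunit for Cry proteins, passed at 42 and 42 UMIs in all members (log2FC = 1.48 and 1.21, adjusted p = 0.00362 and 0.0153, edgeR). The core activators did not pass, with *Clock* at 109 to 210.3 CPM in members and 112 to 147 in other GABAergic neurons (adjusted p = 0.334, edgeR), and *Arntl* at 50.7 to 92.6 and 43.1 to 74.5 CPM (adjusted p = 0.872). *Cry2*, *Csnk1d*, *Csnk1e*, *Nfil3* and *Bhlhe40* also stayed short of the threshold, with log2FC between -0.29 and 0.38. Without fed libraries 3 and 4 *Hlf* kept its call (log2FC = 2.21, adjusted p = 5.54e-21), as did *Nr1d1* (log2FC = 2.25, adjusted p = 1.09e-05) and *Rorb* (log2FC = 2.12, adjusted p = 1.03e-74), from edgeR with libraries as samples, while *Per3* did not (log2FC = 0.50, adjusted p = 0.196).

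Promoters of the clock genes, from RefSeq on GRCm38.p6, were searched for 4 motifs on both strands, from 250 bases before to 50 after the start, since members shared higher levels of several of these genes. 21 of the 26 genes matched, with 30 promoters. The E-box CACGTG was in 6 of them, against 7.15% of all 32851 promoters. The D-box TTATGTAA was in 2 (background 0.938%), the Ror element AGGTCA in 5 (background 16.3%) and the cAMP element TGACGTCA in 1 (background 1.79%). A match is a description of the sequence and not a site of binding. Among the clock genes higher in members, *Ciart* held 3 E-boxes, *Per3* 2 D-boxes and *Hlf* 1 cAMP element, and *Nr1d1*, *Dbp*, *Rora*, *Rorb* and *Fbxl21* held none of the 4 motifs in this window. The 5 genes with an E-box were *Ciart* and *Bhlhe41*, *Cry1*, *Per1* and *Tef*, of which *Ciart* was the only one called higher by edgeR. *Per2* had no entry. The promoters of *Ciart*, *Per3* and *Hlf* are printed with that of *Prok2*, the clock output peptide of the rule, which held 1 E-box. Capitals mark the motif.
Ciart, chr3:95882179-95882478, minus strand: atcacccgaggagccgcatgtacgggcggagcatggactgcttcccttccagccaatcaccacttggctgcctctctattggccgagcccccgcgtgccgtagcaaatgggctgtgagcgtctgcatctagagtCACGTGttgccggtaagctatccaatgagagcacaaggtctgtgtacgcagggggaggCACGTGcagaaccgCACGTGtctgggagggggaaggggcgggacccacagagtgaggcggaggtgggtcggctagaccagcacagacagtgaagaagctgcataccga
Per3, chr4:151044616-151044915, minus strand: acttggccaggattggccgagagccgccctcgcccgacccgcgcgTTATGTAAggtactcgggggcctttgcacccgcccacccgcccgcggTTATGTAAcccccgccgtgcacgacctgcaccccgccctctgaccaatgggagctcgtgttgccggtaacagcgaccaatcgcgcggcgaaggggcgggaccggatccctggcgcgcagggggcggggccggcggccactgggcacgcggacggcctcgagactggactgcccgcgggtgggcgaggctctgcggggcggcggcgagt
Hlf, chr11:90390868-90391167, minus strand: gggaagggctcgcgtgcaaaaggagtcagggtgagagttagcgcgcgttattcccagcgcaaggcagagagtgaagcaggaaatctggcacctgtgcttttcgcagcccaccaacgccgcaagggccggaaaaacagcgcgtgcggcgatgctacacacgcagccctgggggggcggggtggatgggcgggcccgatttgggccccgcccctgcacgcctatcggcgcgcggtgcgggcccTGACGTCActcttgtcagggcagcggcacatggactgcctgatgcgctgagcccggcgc
Prok2, chr6:99726343-99726642, minus strand: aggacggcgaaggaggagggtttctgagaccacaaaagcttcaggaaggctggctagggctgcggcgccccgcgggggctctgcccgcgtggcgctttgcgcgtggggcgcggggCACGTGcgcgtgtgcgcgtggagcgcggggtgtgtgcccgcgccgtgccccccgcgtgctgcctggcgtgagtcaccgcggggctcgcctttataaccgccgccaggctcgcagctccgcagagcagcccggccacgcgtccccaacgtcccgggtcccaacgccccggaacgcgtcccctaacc

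The 10 genes with the largest rises in members that held in all 6 libraries were *Rgs16*, *9330185C12Rik*, *Sh2d4b*, *Lhx1os*, *Tmem51*, *Cdc14a*, *Rasl11b*, *Creb3l1*, *D7Ertd443e* and *Mctp2*, with log2FC from 2.97 to 4.79. *Cdc14a*, a phosphatase gene (chromosome 3, 116272553 to 116424032, minus strand), was at 241, 231, 23.2 and 41.4 CPM in the fed and 209 and 126 CPM in the fasted libraries, and at 5.52 to 14.6 CPM in other GABAergic neurons (log2FC = 3.23, standard error 0.18, adjusted p = 2.8e-67). *Rasl11b* was at 167, 103, 17.6 and 20.7 CPM in the fed and 115 and 118 CPM in the fasted libraries (log2FC = 3.18, standard error 0.26, adjusted p = 3.33e-31). Fed libraries 3 and 4 were low for both, and without them the calls stood (log2FC = 3.92, adjusted p = 8.51e-68 and log2FC = 3.99, adjusted p = 1.72e-40, edgeR). *9330185C12Rik*, a lincRNA, was at 176, 96.2, 9.92 and 42.9 CPM in the fed and 115 and 109 CPM in the fasted libraries (log2FC = 3.97, standard error 0.29, adjusted p = 3.1e-40). *Creb3l1* had 5.51 to 59.8 CPM in members and 2.42 to 4.13 in other GABAergic neurons (log2FC = 3.06, standard error 0.40, adjusted p = 3.12e-12). *Lhx1os* is a lincRNA that neighbours *Lhx1*, a gene of the rule (log2FC = 3.81, standard error 0.26, adjusted p = 6.7e-46). *D7Ertd443e* was higher still in oligodendrocyte-like nuclei, at 158 to 810.4 CPM, than in members, at 5.51 to 120.4 CPM. *Sh2d4b*, *Tmem51* and *Mctp2* rested on 39, 39 and 31 UMIs in all members.

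Genes lower in members included those of other hypothalamic GABAergic populations. *Hdc*, the histamine-synthesizing enzyme of tuberomammillary neurons, was at 0, 0, 7.72 and 20.7 CPM in the fed and 24.9 and 4.21 CPM in the fasted libraries in members and at 66.1 to 139 CPM in other GABAergic neurons (log2FC = -3.26, standard error 0.21, adjusted p = 1.29e-50). *Prph*, an intermediate filament gene, was at 0 to 4.44 and 8.54 to 25.5 CPM (log2FC = -3.53, standard error 0.55, adjusted p = 1.78e-08). *Pdgfrb*, *Gm39653*, *Cox7b2*, *Gm44737* and *Gm20621* had 0 UMIs in members. Against a limit of 3 UMIs over all members, *Pdgfrb* was at least 9.38-fold lower, *Gm39653* at least 5.08-fold, *Cox7b2* at least 3.46-fold, *Gm20621* at least 3.16-fold and *Gm44737* at least 2.83-fold. *Gm20621* overlaps *Ttll8* on the same strand. *Slc26a4*, *Col12a1* and *Gfra3* had 1 UMI each in all members. The calls of *Gm39653*, *Cox7b2*, *Gm20621*, *Slc26a4*, *Col12a1*, *Prph* and *Gfra3* were lost without fed libraries 3 and 4, which hold most of the members' UMIs, although the differences kept their sign (for *Prph* log2FC = -3.06, adjusted p = 0.0929, and for *Slc26a4* log2FC = -2.44, adjusted p = 0.383, edgeR). With DESeq2 the calls of the same genes apart from *Prph* were lost, at adjusted p from 0.112 for *Gm39653* to 1 for *Gfra3*, and so was that of *Gm44737* (adjusted p = 1). Without the members through *Six6* alone, *Gm44737* and *Col12a1* did not pass (adjusted p = 0.0647 and 0.0624, edgeR). With the members that had 2 or more UMIs of the other 5 genes, the same pair and *Cox7b2*, *Gm20621* and *Gfra3* did not pass, at adjusted p from 0.0527 for *Cox7b2* to 0.115 for *Col12a1* (edgeR). Of the 18 markers of other neuron types 10 were lower (against 1.9% of all genes), among them *Agrp* (log2FC = -1.34, standard error 0.17, adjusted p = 6.48e-13), *Pmch* (log2FC = -2.17, standard error 0.18, adjusted p = 2.14e-31), *Oxt* (lower in 4 of 6 libraries, log2FC = -1.29, standard error 0.18, adjusted p = 7.92e-11) and *Pomc* (lower in 5 of 6, log2FC = -0.68, standard error 0.16, adjusted p = 0.00106). The higher one was *Slc6a3*, the dopamine transporter, with 13 UMIs in all members (log2FC = 2.81, standard error 0.74, adjusted p = 0.00641).

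Neuropeptide counts have to be read beside free RNA. The 20 neuropeptide genes outside the rule summed to 583, 693, 1893 and 2117 CPM in members of the fed and 244 and 252 CPM of the fasted libraries, and to 386, 497, 937 and 1149 CPM in the fed and 141 and 142 CPM in the fasted libraries in oligodendrocyte-like nuclei, which do not make them. Both sets were highest in fed libraries 3 and 4 and lowest in the fasted libraries. The oligodendrocyte-like nuclei numbered 148, 133, 27 and 39 in the fed and 502 and 546 in the fasted libraries. Their levels in fed libraries 3 and 4 thus rest on few nuclei. An *Avp* UMI was present in 55.1% of members and 12.6% of oligodendrocyte-like nuclei, and in 21% and 7.97% after thinning. These shares pool the libraries. The fasted libraries gave 69 of the 301 members but 1048 of the 1395 oligodendrocyte-like nuclei, so the pooled gap mixes library with kind of nucleus. By library, members with an *Avp* UMI were 9 of 26, 7 of 30, 76 of 100 and 57 of 76 in the fed and 8 of 35 and 9 of 34 in the fasted libraries. *Avp*, the most abundant in members, was at 204, 257, 393 and 483 CPM in the fed and 54.8 and 130.4 CPM in the fasted libraries, in oligodendrocyte-like nuclei at 124, 98.8, 145 and 259.9 CPM in the fed and 25.3 and 26.8 CPM in the fasted libraries, and over all nuclei at 127, 112, 559 and 493 CPM in the fed and 37.3 and 40.8 CPM in the fasted libraries. In fed libraries 3 and 4 the pooled *Avp* level of members was thus below that of all nuclei, by little in fed library 4. Members with 3 or more *Avp* UMIs were 21 of 100 and 14 of 76 there, against 19.0 and 18.1% of all nuclei. The part of free RNA in the *Avp* level was not tested.

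Of the 20 peptide genes tested outside the rule, 3 were higher in members (*Avp*, *Grp* and *Tac2*, against 1.37% of all genes) and 8 were lower (against 1.9%). *Avp* and *Grp* are also counted among the suprachiasmatic markers. *Grp* was at 0, 0, 138 and 94.7 CPM in the fed and 4.98 and 0 CPM in the fasted libraries, so fed libraries 3 and 4 carried it and the other 4 had at most 1 UMI (log2FC = 3.25, standard error 0.34, adjusted p = 1.95e-19, higher in 3 of 6 libraries), and without them it did not pass (log2FC = 0.20, adjusted p = 0.992, edgeR). *Avp* had log2FC = 0.85, standard error 0.14, adjusted p = 1.54e-07 and *Tac2*, which encodes neurokinin B, had log2FC = 1.10, standard error 0.18, adjusted p = 1.73e-07, each higher in 5 of 6 libraries, and for *Avp* and *Grp* the adjusted p was 1 with DESeq2. *Gal* (log2FC = -1.93, standard error 0.18, adjusted p = 6.63e-24), *Npy* (log2FC = -1.19, standard error 0.18, adjusted p = 3.58e-09), *Cartpt* (log2FC = -0.73, standard error 0.13, adjusted p = 1.58e-06) and *Nts* (log2FC = -0.61, standard error 0.15, adjusted p = 0.00161) were lower in members in 6 of 6 libraries. *Sst*, *Penk*, *Pnoc*, *Cck* and *Trh* did not pass. The part of free peptide RNA in these differences was not tested. The levels of *Vip*, *Prok2* and *Nms* in members were set in part by the rule, so they are not read against free RNA.

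**Figure D3:**
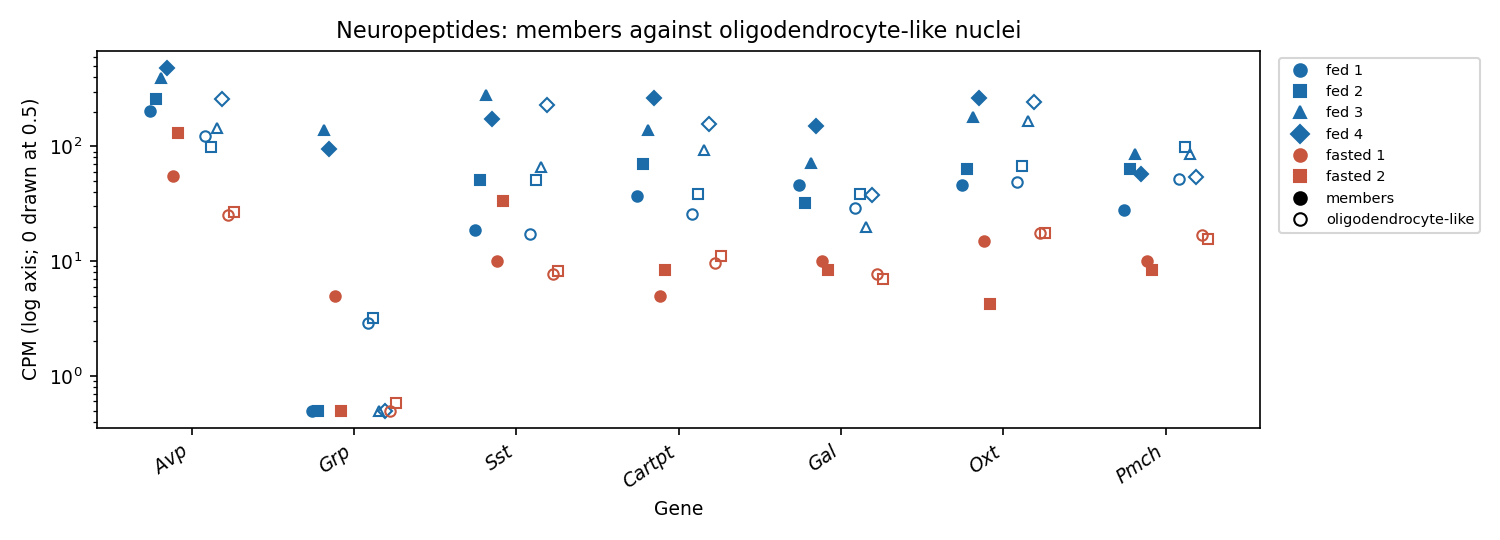
Level of 7 neuropeptide genes outside the rule in CPM (log axis, values of 0 drawn at 0.5) in members (filled) and in oligodendrocyte-like nuclei (open), 1 point per library. Avp lies at 54.8 to 483 CPM in members and 25.3 to 259.9 CPM in oligodendrocyte-like nuclei, and Oxt at 4.21 to 263 and 17.5 to 243 CPM.

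Of 14 genes of peptide processing and release, 4 were higher in members (against 1.37% of all genes) and 1 lower (against 1.9%). *Cadps2*, a priming factor of dense-core vesicles, was at 861, 937, 339.6 and 272 CPM in the fed and 578 and 749 CPM in the fasted libraries, against 133 to 211 CPM in other GABAergic neurons (log2FC = 1.69, standard error 0.12, adjusted p = 2.37e-43). Its relative *Cadps* was at 454 to 563 against 558 to 775 CPM and did not pass (adjusted p = 0.0756, edgeR). *Scg2*, a secretogranin, had log2FC = 0.73, standard error 0.13, adjusted p = 7.38e-07, and the prohormone convertase *Pcsk2* had log2FC = 0.41, standard error 0.10, adjusted p = 0.00256. Of 25 receptor genes tested outside the rule 3 were higher (against 1.37% of all genes), namely *Prokr2*, counted also among the suprachiasmatic markers, the Grp receptor *Grpr* (log2FC = 2.36, standard error 0.51, adjusted p = 0.000301, 21 UMIs) and the dopamine receptor *Drd1* (log2FC = 1.99, standard error 0.44, adjusted p = 0.0005, 29 UMIs), and 4 were lower (against 1.9%), of which *Gria1*, an AMPA receptor subunit, was the most abundant (log2FC = -0.52, standard error 0.10, adjusted p = 4.17e-05). *Gria2*, *Gria4*, *Grin2b* and *Grin1* did not pass, with log2FC between -0.14 and -0.05.

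Of 21 GABA signalling genes outside the rule 0 were higher (against 1.37% of all genes) and 2 lower (*Gabra5* and *Gabrb2*, against 1.9%) by edgeR, with a median log2FC of -0.17. *Gabrb1*, the receptor subunit with the highest level, was at 776 to 982 CPM in members and 839.8 to 1098 CPM in the other neurons. Of 28 channel genes, 1 was higher (against 1.37% of all genes) and 3 were lower (against 1.9%). *Kcnd2*, an A-type potassium channel, was lower in 6 of 6 libraries (log2FC = -0.40, standard error 0.12, adjusted p = 0.0369). Of 26 immediate early genes tested, 2 were higher (against 1.37% of all genes) and none was lower (against 1.9%). These were *Ier2* and *Sik1*, higher in 4 and 6 of 6 libraries (log2FC = 1.70, standard error 0.53, adjusted p = 0.0433 and log2FC = 1.34, standard error 0.27, adjusted p = 6.85e-05, edgeR). *Egr2*, *Egr3* and *Klf4* had 0 UMIs in members.

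Among markers of other cell types, those of oligodendrocytes were low in members. The 8 oligodendrocyte markers summed to 83.3, 89.8, 143 and 144 CPM in the fed and 145 and 181 CPM in the fasted libraries, against 9931 to 14508 CPM in oligodendrocyte-like nuclei, and *Mbp* was the most abundant. The 8 astrocyte markers summed to 111, 263, 159 and 181 and 79.7 and 67.3 CPM, with *Aldoc* the most abundant. In other GABAergic neurons they summed to 115, 129, 182 and 166 and 144 and 158 CPM, so members were above them in fed libraries 2 and 4. In fed library 2 the members were close to oligodendrocyte-like nuclei (261 CPM). Of the 8, the glutamate transporter gene *Slc1a3* was higher (log2FC = 0.80, standard error 0.23, adjusted p = 0.0238, edgeR) through fed libraries 1 and 2 (64.8 and 179.6 CPM). It was at 2.21 and 14.8 CPM in fed libraries 3 and 4 and 34.9 and 12.6 CPM in the fasted libraries. The part of astrocyte RNA in the members' levels was not tested. Microglial markers summed to 34.9 to 64.0 CPM, against 32.0 to 66.0 CPM in oligodendrocyte-like nuclei. Endothelial and mural ones summed to 1.10 to 19.2 CPM with *Cldn5*, *Cdh5*, *Rgs5* and *Abcc9* at 0. Tanycyte and ependymal ones summed to 0 to 31.1 CPM with *Ccdc153* and *Tmem212* at 0. Among glutamatergic markers *Slc17a7*, *Slc17a8* and *Tbr1* were at 0, and *Sim1* had 14 UMIs.

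Members made up 0.308, 0.452, 1.57 and 1.19% of the nuclei in fed libraries 1 to 4 and 0.586 and 0.579% in the fasted libraries. The exact 95% binomial intervals, which cover counting error only, ran from 0.201 to 0.451% in fed library 1, from 1.28 to 1.91% in fed library 3 and from 0.408 to 0.814% in fasted library 1. The mean was 0.881% ± 0.602 (SD, n = 4) in the fed and 0.582% ± 0.00492 (SD, n = 2) in the fasted libraries. The fed libraries thus spanned a wider range than the difference between the conditions, and the fasted shares lay within it. Without fed libraries 3 and 4 the fed mean was 0.380%, below the fasted mean, so the direction of the difference rested on them. With nuclei thinned to 2000 UMIs the shares were 0.114, 0.0963, 0.112 and 0.0636% and 0.109 and 0.128%, from 9, 6, 7, 4, 6 and 7 nuclei, and all 6 intervals overlapped. The 89 to 528 nuclei of a library that were shallower were left out. No test was made, because the fed libraries come from 2 pools and the fasted ones from 1.

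**Figure D4:**
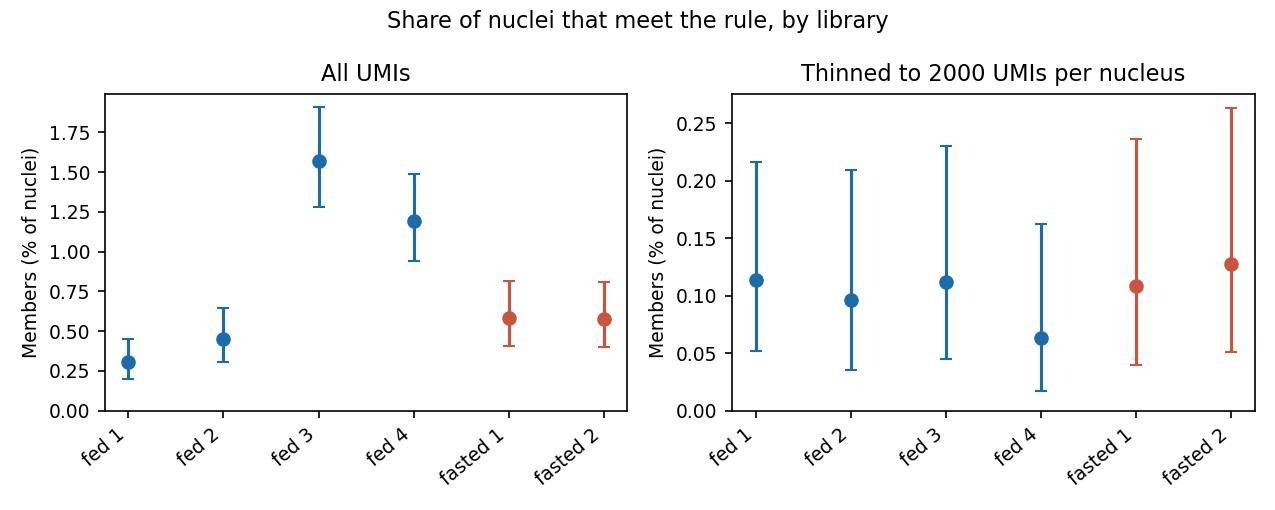
Members as a percentage of all nuclei in each library, with all UMIs (left) and after thinning to 2000 UMIs, with shallower nuclei left out (right). Points are shares and bars are exact 95% binomial intervals. Fed libraries 3 and 4 stand at 1.57 and 1.19% on the left, and all libraries lie between 0.0636 and 0.128% on the right.

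The second question was whether a 16 h fast changed gene expression in these neurons. Over 9024 genes outside the rule, 0 (0.0%) passed an adjusted p of 0.05 by edgeR, with the largest p over the 3 ways to pair the fed libraries, and 235 (2.6%) had an unadjusted p under 0.05. DESeq2 called 0, with 176 at an unadjusted p under 0.05. The count depended on the pairing of the fed libraries, from 0 with libraries 1 and 2 as one pool to 2287 with 1 and 3 and 2348 with 1 and 4. With the 6 libraries instead of pools as samples no gene passed (1346 had an unadjusted p under 0.05), and in that form the count was 28 of 4198 without fed libraries 3 and 4 and 2421 of 9010 without fed libraries 1 and 2. With pools, it was 0 of 7743 without the members through *Six6* alone and 0 of 6864 with the members that had 2 or more UMIs of the other 5 genes, with 172 and 136 at an unadjusted p under 0.05 (edgeR). The filter, 10 counts in 2 or more libraries, would not have passed 4826 of the 9024 genes (53.5%) without fed libraries 3 and 4, which held most of the counts, so genes low elsewhere entered through them. Of the 854 genes below the fed range, 527 reached the count in those libraries only. Condition and pool cannot be told apart with a single fasted pool, and in summed counts fewer cells of a kind and less RNA per cell cannot be told apart either.

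None of the 21 clock genes tested passed for fasting, and 0 had an unadjusted p under 0.05, with a median log2FC of 0.37 against -0.03 over all genes. Of the 21, 12 would not have passed the filter without fed libraries 3 and 4. Both fasted libraries were above all fed ones for 4 of 21 genes, *Clock*, *Npas2* and *Per3* among them (against 11.5% of all genes), and none was below all of them (against 9.46%). *Clock* was at 120.4, 109, 146 and 135 CPM in the fed and 204 and 210.3 CPM in the fasted libraries (log2FC = 0.67, standard error 0.60, unadjusted p = 0.304), and *Per3*, given above, had log2FC = 0.41, standard error 0.60, unadjusted p = 0.512. *Npas2*, a paralogue of *Clock*, was at 9.26, 12.8, 14.3 and 20.7 CPM in the fed and 64.8 and 21.0 CPM in the fasted libraries (log2FC = 1.38, standard error 0.66, unadjusted p = 0.0739). For *Nr1d1*, *Dbp*, *Per2* and *Rorb* the conditions overlapped. Among immediate early genes 2 of 7 lay above all fed libraries, *Sik1* and *Homer1* (against 11.5% of all genes), and none lay below (against 9.46%). Of the 7, 4 would not have passed the filter without fed libraries 3 and 4. *Sik1*, a kinase gene that restrains the clock's response to light, was at 37.0, 12.8, 13.2 and 28.1 CPM in the fed and 64.8 and 71.5 CPM in the fasted libraries (log2FC = 1.69, standard error 0.59, unadjusted p = 0.0240), and in other GABAergic neurons at 9.55, 9.49, 11.4 and 10.9 CPM in the fed and 17.1 and 19.6 CPM in the fasted libraries.

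*Sik1* was one of the 10 genes with the smallest unadjusted p among those above the fed range in both fasted libraries. The others were *Pdzd2*, *Col9a3*, *B3galnt2*, *Pard6g*, *A330040F15Rik*, *Smurf1*, *Rab40b*, *Myt1* and *Snx25*, with log2FC from 1.48 to 2.69 and unadjusted p from 0.0186 to 0.0340 (edgeR). *Pdzd2*, which encodes a PDZ domain protein, was at 46.3, 12.8, 19.8 and 20.7 CPM in the fed and 115 and 50.5 CPM in the fasted libraries. In other GABAergic neurons all 10 were likewise above the fed range in both fasted libraries. *Zbtb16*, a glucocorticoid-responsive transcription factor, was at 9.26, 19.2, 16.5 and 23.7 CPM in the fed and 64.8 and 46.3 CPM in the fasted libraries (log2FC = 1.56, standard error 0.61, unadjusted p = 0.0366), and at 15.7, 16.4, 16.9 and 16.2 CPM in the fed and 84.0 and 81.3 CPM in the fasted libraries in other GABAergic neurons. Of 11 glucocorticoid and fasting genes it was the only one above the fed range (against 11.5% of all genes). Without fed libraries 3 and 4, 7 of the 11 would not have passed the filter. *Ddit4* was at 18.5, 32.1, 21.0 and 16.3 CPM in the fed and 9.97 and 0 CPM in the fasted libraries. It reached the count in fed libraries 3 and 4 only, so it is given as levels, with no count below the fed range. Channel genes were above the fed range in 8 of 25 (against 11.5% of all genes) and below it in 1 (against 9.46%), and 0 had an unadjusted p under 0.05 (median log2FC = 0.08). Of these, *Cacna1d*, a calcium channel of the L type, was at 861, 776, 586 and 595 CPM in the fed and 892 and 1026 CPM in the fasted libraries, and *Kcnc2*, a fast potassium channel, at 472, 532, 221 and 263 CPM in the fed and 543 and 576 CPM in the fasted libraries. In members the 28 channel genes summed to 8316, 7698, 5828 and 6015 CPM in fed and 7954 and 8283 in fasted libraries. The fasted sums thus lay within the fed range. In other GABAergic neurons they summed to 8206, 8142, 6318 and 6247 CPM in fed and 8253 and 8204 in fasted libraries. Both sets were lowest in fed libraries 3 and 4.

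Below the fed range, the 10 genes that the naming rule ranked first were *Tmem176b*, *Tac1*, *Smpd1*, *Timm8b*, *Cebpzos*, *Wdr83os*, *Cartpt*, *1500009C09Rik*, *Cthrc1* and *Pmch*. None of these 10 passed the count filter without fed libraries 3 and 4, so they are given as levels, with no p. *Tac1*, which encodes substance P, was at 27.8, 12.8, 80.5 and 53.3 CPM in the fed and 0 and 0 CPM in the fasted libraries, and in oligodendrocyte-like nuclei at 11.5, 28.7, 132 and 33.5 CPM in the fed and 11.03 and 8.15 CPM in the fasted libraries. *Cartpt* was at 37.0, 70.6, 139 and 263 CPM in the fed and 4.98 and 8.41 CPM in the fasted libraries in members and at 25.9, 38.2, 92.4 and 155 CPM in the fed and 9.73 and 11.1 CPM in the fasted libraries in oligodendrocyte-like nuclei. For both, fed libraries 3 and 4 were high and the fasted libraries low in either kind of nucleus. Fed libraries 3 and 4 held only 27 and 39 oligodendrocyte-like nuclei. Of the 15 neuropeptide genes tested outside the rule, 13 passed the count filter only with fed libraries 3 and 4, where they were high, so no count or median over them is given. The summed peptide level in oligodendrocyte-like nuclei was also lower in the fasted libraries, at 386, 497, 937 and 1149 CPM in the fed and 141 and 142 CPM in the fasted ones, and the part of free RNA in these values was not tested.

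*Vip*, as a gene of the rule, is given as levels only. Over all nuclei of a library, without use of the rule, it was at 2.66, 5.58, 9.30 and 8.28 CPM in the fed and 1.08 and 0.957 CPM in the fasted libraries, so both fasted libraries lay below all fed ones. Nuclei with 3 or more *Vip* UMIs numbered 10, 18, 19 and 26 in the fed and 3 and 4 in the fasted libraries. Among members a *Vip* UMI was present in 8, 12, 13 and 10 and 4 and 6 nuclei, and the highest nucleus had 5, 6, 80 and 57 and 6 and 5 UMIs. The members' level of 222, 225, 193 and 215 CPM in the fed and 49.8 and 67.3 CPM in the fasted libraries therefore rests on few nuclei in each library. *Prok2* over all nuclei was at 2.15, 3.28, 1.85 and 2.22 CPM in the fed and 1.69 and 2.17 CPM in the fasted libraries, and these overlapped. The other 6 peptide genes followed over all nuclei, *Avp*, *Nms*, *Grp*, *Cck*, *Sst* and *Oxt*, were below all fed libraries in both fasted ones, as *Vip* was. *Cck* was at 7.67, 8.41, 42.3 and 33.6 CPM in the fed and 3.98 and 3.69 CPM in the fasted libraries, and *Sst* at 36.0, 32.0, 246 and 263 CPM in the fed and 13.7 and 11.6 CPM in the fasted libraries.

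A test of whether the fasting difference in members departed from that in other GABAergic neurons, as an interaction in edgeR, called 3 of 18522 genes outside the rule (0.0162%), 5 without the members through *Six6* alone and 7 with the members that had 2 or more UMIs of the other 5 genes. *Nell1*, which encodes a secreted EGF-like protein (chromosome 7, 49974864 to 50866608, plus strand), was at 269, 308, 179.7 and 209 CPM in the fed and 568 and 492 CPM in the fasted libraries in members and at 212, 228, 198 and 194 CPM in the fed and 188 and 198 CPM in the fasted libraries in other GABAergic neurons. Its fasting difference was larger in members by 1.32 on the log2 scale, standard error 0.29, adjusted p = 0.0237, and both fasted members' values lay above all fed ones, with no such rise in the other neurons. *Gm4876*, an antisense RNA that overlaps *Tes* on the opposite strand, was at 83.3, 51.3, 71.7 and 38.5 CPM in the fed and 24.9 and 12.6 CPM in the fasted libraries in members and at 96.9, 89.4, 68.4 and 60.1 CPM in the fed and 119.8 and 135 CPM in the fasted libraries in other GABAergic neurons, so the sets moved in opposite directions (interaction -2.496 on the log2 scale, standard error 0.47, adjusted p = 0.00234). *C77080* (chromosome 4, 129219578 to 129261404, minus strand) was at 27.8, 12.8, 241 and 96.2 CPM in the fed and 9.97 and 0 CPM in the fasted libraries in members and 23.8, 21.8, 108 and 93.6 CPM in the fed and 40.9 and 21.1 CPM in the fasted libraries in other neurons (interaction -3.43 on the log2 scale, standard error 0.70, adjusted p = 0.00795), and its high values came from fed libraries 3 and 4. The 3 calls were all lost with DESeq2, with a rule of 3 or more UMIs, in thinned nuclei and without fed library 2 or 3. Of the 3, 2 were lost without fed library 4 and without either fasted library, and without fed libraries 3 and 4 (libraries as samples) *Nell1* alone kept its call (log2 difference 1.15, adjusted p = 0.0222, edgeR).

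**Figure D5:**
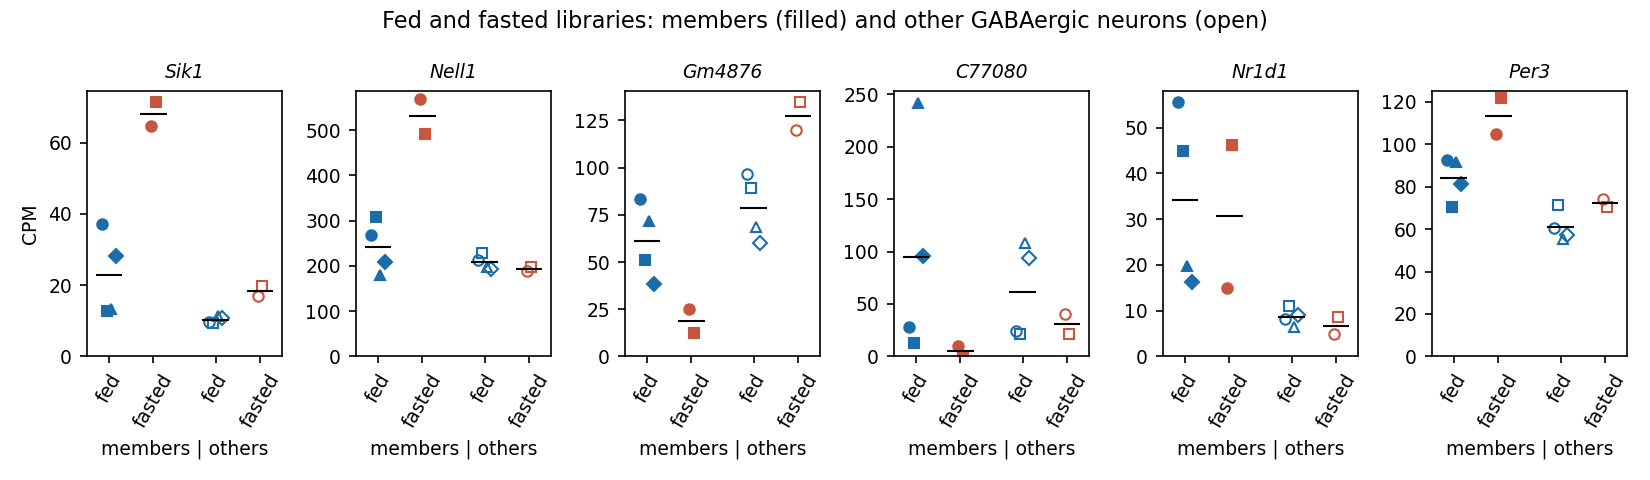
Level of 6 genes in CPM (linear axes from 0, 1 panel per gene) in members (filled) and other GABAergic neurons (open), 1 point per library, fed in blue and fasted in red, with a line at each mean. Members of the fasted libraries lie at 568 and 492 CPM for Nell1 and 64.8 and 71.5 CPM for Sik1, above all fed libraries, while those of Nr1d1 overlap the fed ones.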

How the data were processed

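Single-nucleus RNA was measured in 6 libraries (4 ad libitum fed, 2 fasted). The authors deposited UMI counts per gene and barcode, made with Cell Ranger 5.0.1 per the submitters' processing notes, which also name Ensembl gene models 100. From the counts, members were selected by the rule, and the UMIs of members, other GABAergic neurons, *Lhx1*-positive GABAergic nuclei outside the rule and oligodendrocyte-like nuclei (at least 10 UMIs of oligodendrocyte markers) were summed per library. Members and gene lists were chosen with earlier results of these data known.

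Sums were fitted with edgeR 4.0.16 (R 4.3.3; TMM, quasi-likelihood) for genes whose count reached 10 in 2 or more of the 6 libraries. The 2 tubes of a pool were summed, since the pool is the replicate. Because the pooling of the fed libraries is not given in the sources used here, all 3 pairings were fitted, the largest p per gene was kept and Benjamini-Hochberg adjustment was applied over all genes, with a threshold of 0.05. The genes of the rule were then left out of all counts. Sets within a library were compared with the pool as block. Levels are counts per 1000000 UMIs of the summed set (CPM), and log2FC is edgeR's estimate. Its standard error was derived as the size of log2FC divided by the square root of the quasi-likelihood F statistic. In the main fits both come from the pairing that gave the largest p. Shares have exact Clopper-Pearson 95% intervals. Thinning drew 2000 UMIs per nucleus and left out shallower nuclei. Doublets were scored with Scrublet in scanpy 1.11.5 at an expected 5%. The 5% of nuclei with the highest score in each library were marked and kept in the main analysis. DESeq2 1.42.0 was an alternative, beside those given in the closing section. The code was tested on simulated data. Named genes were those of the short lists (at most 5 per further list, by mean CPM), the 10 largest called differences in each direction with the same sign in 6 libraries, and for fasting the 10 smallest p in each direction with both fasted libraries outside the fed range. *Nnat*, *Hbegf*, *Synpr*, *Sema3e*, *Nr4a3*, *Zbtb16*, *Ddit4*, *Slc6a3*, *Slc1a3*, *Kcnc2*, *Gabra5*, *Gabrb2*, *Grpr*, *Drd1*, *Ier2* and the genes named only as being at 0, and the groupings by peptide were taken up after the values were seen. Positions are from GENCODE M21 on GRCm38 and promoters from RefSeq on GRCm38.p6. Some members of the lists are counted in them but not reported by name here. With 1 fasted pool, fasting rests on the spread between the 2 fed pools.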

Additional observations from a re-analysis of the deposited data

Results flagged for a closer look

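In members the fasting difference departed from that in other GABAergic neurons for 3 genes by the interaction test in edgeR. The departure was 1.32 on the log2 scale for *Nell1*, -2.496 for *Gm4876* and -3.43 for *C77080*. Members numbered 69 in the fasted libraries, and the fasted level of *C77080* rested on at most 2 UMIs in a library. Among the 4 fed libraries, fed library 2 was far from the other 3 for *Ciart*, at 38.5 CPM against 14.8 to 18.5 CPM, with a gap of 0.843 of the range. It was the single value past this limit among 92 gene and group values checked, where chance gives about 1 in 20. Members of fed libraries 1 and 2 held 107987 and 155886 UMIs of all genes, so their *Ciart* levels rested on few UMIs. The causes of these 4 departures were not tested.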

How the results depend on the processing

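The count of genes called for fasting (0) rested on the pairing of the fed libraries. It was 2287 with fed libraries 1 and 3 as a pool, 2348 with 1 and 4, and, with libraries instead of pools as samples, 28 without fed libraries 3 and 4 and 2421 without fed libraries 1 and 2 (this pair was added after the data were seen, as was leaving out members by their UMIs of *Six6*). It was 0 of 5449 to 9023 genes with a replicate left out, and 0 with all 6 libraries as separate samples, with DESeq2, without the count filter and with a rule of 3 or more UMIs. In thinned nuclei 157 genes could be tested in 39 members (2 at an unadjusted p under 0.05), so the 0 there says nothing about stability. The 606 genes that set members apart became 1404 and 1582 under the pairings 1 with 3 and 1 with 4, 1002 with libraries as separate samples, 228 with DESeq2, 241 in thinned nuclei and 216 against *Lhx1*-positive nuclei outside the rule, and ran from 416 to 486 with a replicate left out. The 9 clock genes higher in members became 5 with DESeq2, 2 in thinned nuclei and 5 against *Lhx1*-positive nuclei outside the rule, and the 12 suprachiasmatic markers became 8, 7 and 9. The 3 interaction calls became 59, 79, 24 and 0 under those pairings, separate libraries and DESeq2, 0 with 3 or more UMIs, 6 without doublets, 0 in thinned nuclei, 5 without members through *Six6* alone, 7 with members of 2 or more UMIs of the other 5 genes, 5 without fed libraries 3 and 4 (1 of the 3 among them) and 100 without fed libraries 1 and 2, the last pair with libraries as samples. They ran from 0 to 4 with a replicate left out. For *Fbxl21* the difference turned to -7.37 on the log2 scale in thinned nuclei, where 39 members were left and held no UMI of it, so this fitted value sets no bound.

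The mean share of members was 0.0963% in the fed and 0.118% in the fasted libraries after thinning, and 2.58 and 2.10% of GABAergic nuclei. It was 0.554% in the fed and 0.346% in the fasted libraries with 3 or more UMIs, 0.884 and 0.595% without doublets, 0.651 and 0.566% without members through *Six6* alone, and 0.538 and 0.532% with members of 2 or more UMIs of the other 5 genes. Without fed libraries 3 and 4 the fed mean was 0.380%, below the fasted 0.582%, and without fed libraries 1 and 2 it was 1.38%. With a replicate left out it ran from 0.650 to 1.07% in the fed and from 0.579 to 0.586% in the fasted libraries.

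Replicate numbers are shared by name only, with a correlation of 0.0142 over the 9032 genes fitted, rule genes included, between same-numbered libraries. With the replicate block, in 2 fed and 2 fasted libraries, 83 genes were called for fasting and 7 for the interaction, 1 of them among the 3. The cause of these changes was not tested, beyond the smaller number of nuclei in some alternatives. Depth also limits the fed and fasted comparison, since members of fed libraries 1 and 2 held 107987 and 155886 UMIs in all.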
